A study of Mus musculus with 16 samples.

Results

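The bone morphogenetic protein (BMP) genes described here are 4 ligands, Bmp2, Bmp4, Bmp6 and Bmp7, and 4 secreted proteins that bind BMPs outside the cell, Grem1, Nog, Twsg1 and Bmper. They were taken as every probe set annotated to one of these 8 genes, which gave 13 probe sets out of 45101 on the array. Of the 8 genes, 6 had a probe set over the filter on low signals and were tested among 12172 genes. Bmp4 and Nog did not pass it, and their levels are given without being part of those tests.

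The samples were ovarian follicles, from the preantral to the small antral stage, dissected from female C57BL/6Tac mice given as 8 weeks old in the sample labels, and cultured in drops. Control follicles received no anti-Müllerian hormone (AMH) and treated follicles received recombinant AMH at 50 ng/ml. All groups, controls included, were kept in medium with FSH at 80 IU/L and LH at 10 IU/L, and no group without these gonadotropins or without culture was part of the design. Each arm was collected at 12 h and at 24 h with 4 samples each, 16 arrays in all. Within an experiment, follicles of 8 mice were pooled and both arms were drawn from that pool, and each sample held 6 to 9 follicles. The spread between arrays is therefore a spread between pools and handfuls of follicles, not between single animals. The study asked what AMH does to gene expression in growing follicles.

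BMPs are dimeric growth factors of the TGF-beta superfamily that assemble type I and type II serine/threonine kinase receptors, which phosphorylate SMAD1, SMAD5 and SMAD9. These enter the nucleus with SMAD4 and act on targets such as the Id genes. AMH, made by granulosa cells of growing follicles, has its own type II receptor, AMHR2, but shares type I receptors and SMADs with the BMPs. In the rodent ovary BMP6 has been described in oocytes and granulosa cells and BMP4 and BMP7 in theca cells, and BMP signalling there is known for tempering the response of granulosa cells to gonadotropins. Secreted binding proteins set how much ligand reaches the receptors: noggin and gremlin block it, while twisted gastrulation and BMPER can block or promote it depending on their partners.

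Levels are log2(signal + 1.46), where 1.46 was the 10th percentile of all deposited signals, and 1 unit is close to a doubling except near the offset. A gene was called changed at an adjusted p (limma, Benjamini-Hochberg over all genes tested) under 0.05. Arrays are numbered by the replicate number in their labels. In these bulk samples, fewer cells of a type and less RNA per cell cannot be told apart.

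None of the 6 tested genes passed the test for a change with AMH at 12 h or at 24 h. Of all genes tested, 0% and 0.0164% passed in these comparisons. Bmp6 and Twsg1 passed the test for time in culture. In that test 19.1% of all genes were called in controls and 8.28% in AMH-treated follicles. The Bmp6 level, on the offset scale, in control follicles was 2.71-fold lower at 24 h than at 12 h, and the Twsg1 level in AMH-treated follicles was 1.62-fold higher. The start regions of Bmp6 and Twsg1 are shown first because these genes were called over time. Whether the sequences have a part in those changes was not tested. RefSeq promoter windows (build GRCm38.p6) were matched for 5 of the 8 genes, namely Bmp4, Bmp6, Grem1, Twsg1 and Bmper. The 250 bases before the annotated start are printed 5′ to 3′ on the gene's own strand, with the GC box GGGCGG, read on either strand, in capitals. The Bmp6 window lies at chr13:38345466-38345715 on the plus strand and the Twsg1 window at chr17:65951188-65951437 on the minus strand.
Bmp6: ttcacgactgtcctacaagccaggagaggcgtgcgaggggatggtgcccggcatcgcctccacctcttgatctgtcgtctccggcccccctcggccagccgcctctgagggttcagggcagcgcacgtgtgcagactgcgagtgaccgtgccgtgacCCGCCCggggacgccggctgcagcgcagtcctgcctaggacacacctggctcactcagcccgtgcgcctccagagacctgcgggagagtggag
Twsg1: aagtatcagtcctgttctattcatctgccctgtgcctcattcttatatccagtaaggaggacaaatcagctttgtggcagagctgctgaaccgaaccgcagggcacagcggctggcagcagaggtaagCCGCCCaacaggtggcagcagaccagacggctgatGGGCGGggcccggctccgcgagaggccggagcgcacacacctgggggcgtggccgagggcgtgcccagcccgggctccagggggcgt

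The Bmp6 window held 1 GC box match and the Twsg1 window 2, and GC content was 68.8% and 64.4%. A match to GGGCGG occurred in 32.7% of all 32851 windows of this length. No match was found in either window to the half-site of the cyclic AMP response element, TGACG (17.8% of all windows), to the full element TGACGTCA (1.55%, each match also holding the half-site), to the palindromic BMP SMAD site GGCGCC (9.59%) or to the TATA box TATAAA (12.4%), on either strand. Of the other 3 windows, that of Grem1 held the SMAD palindrome once. A match is a description of letters, and no binding was measured.

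The ligand Bmp6 had the clearest pattern over time. In control follicles at 12 h its 4 arrays stood at 9.39, 9.38, 8.47 and 9.43 (9.17 ± 0.47, SD, n = 4), and at 24 h at 7.37, 7.68, 8.05 and 7.83 (7.73 ± 0.29). Every 12 h array was above every 24 h array. On the deposited linear scale the 12 h signals ran from 353 to 687 and the 24 h signals from 163 to 263. The change was -1.44 (SE 0.23, 95% interval -1.91 to -0.96, adjusted p = 0.000593). Among all genes tested, 19.1% were called in this comparison of control 24 h with 12 h, 9.19% as lower, and 10.9% had groups that did not overlap with 24 h lower.

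In AMH-treated follicles Bmp6 stood at 8.34, 8.94, 8.25 and 8.87 at 12 h (8.60 ± 0.35) and at 8.17, 7.59, 8.13 and 7.96 at 24 h (7.96 ± 0.27). Again no arrays overlapped between times, but the nearest arrays of the 2 times were almost level. The change was -0.64 (SE 0.23, 95% interval -1.12 to -0.16) and was not called (adjusted p = 0.0902). In this comparison 8.28% of all genes were called, and 7.65% had groups that did not overlap with 24 h lower. With a replicate number left out the change ran from -0.40 (adjusted p = 0.456, without replicate 2) to -0.81 (adjusted p = 0.0429, without replicate 3, where it was called).

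The order of the group means of Bmp6 was control 24 h, AMH 24 h, AMH 12 h and control 12 h from lowest to highest. At 12 h the AMH array was below its paired control in 4 of 4 pairs, by -1.05, -0.44, -0.22 and -0.56, as it was for 7.71% of all genes. The change with AMH at 12 h was -0.57 (SE 0.17, 95% interval -0.94 to -0.19), with an unadjusted p of 0.00674 in limma, and was not called (adjusted p = 0.591). An unadjusted p under 0.05 was found for 6.47% of all genes in this comparison, and 0% of genes were called. At 24 h the pairs differed by 0.81, -0.10, 0.09 and 0.13, so that 3 of 4 were higher with AMH, and the change was 0.23 (SE 0.17, 95% interval -0.14 to 0.61, adjusted p = 1).

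Whether AMH acted differently on Bmp6 at the 2 times was tested directly, which is the same as asking whether the fall over time differed between arms. The difference was 0.80 (SE 0.24, 95% interval 0.27 to 1.33, unadjusted p = 0.0069) and was not called (adjusted p = 0.635, with 0% of genes called and 5.64% at an unadjusted p under 0.05). Replicate 1 carried much of it, and without that replicate the difference was 0.44.

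**Figure D1:**
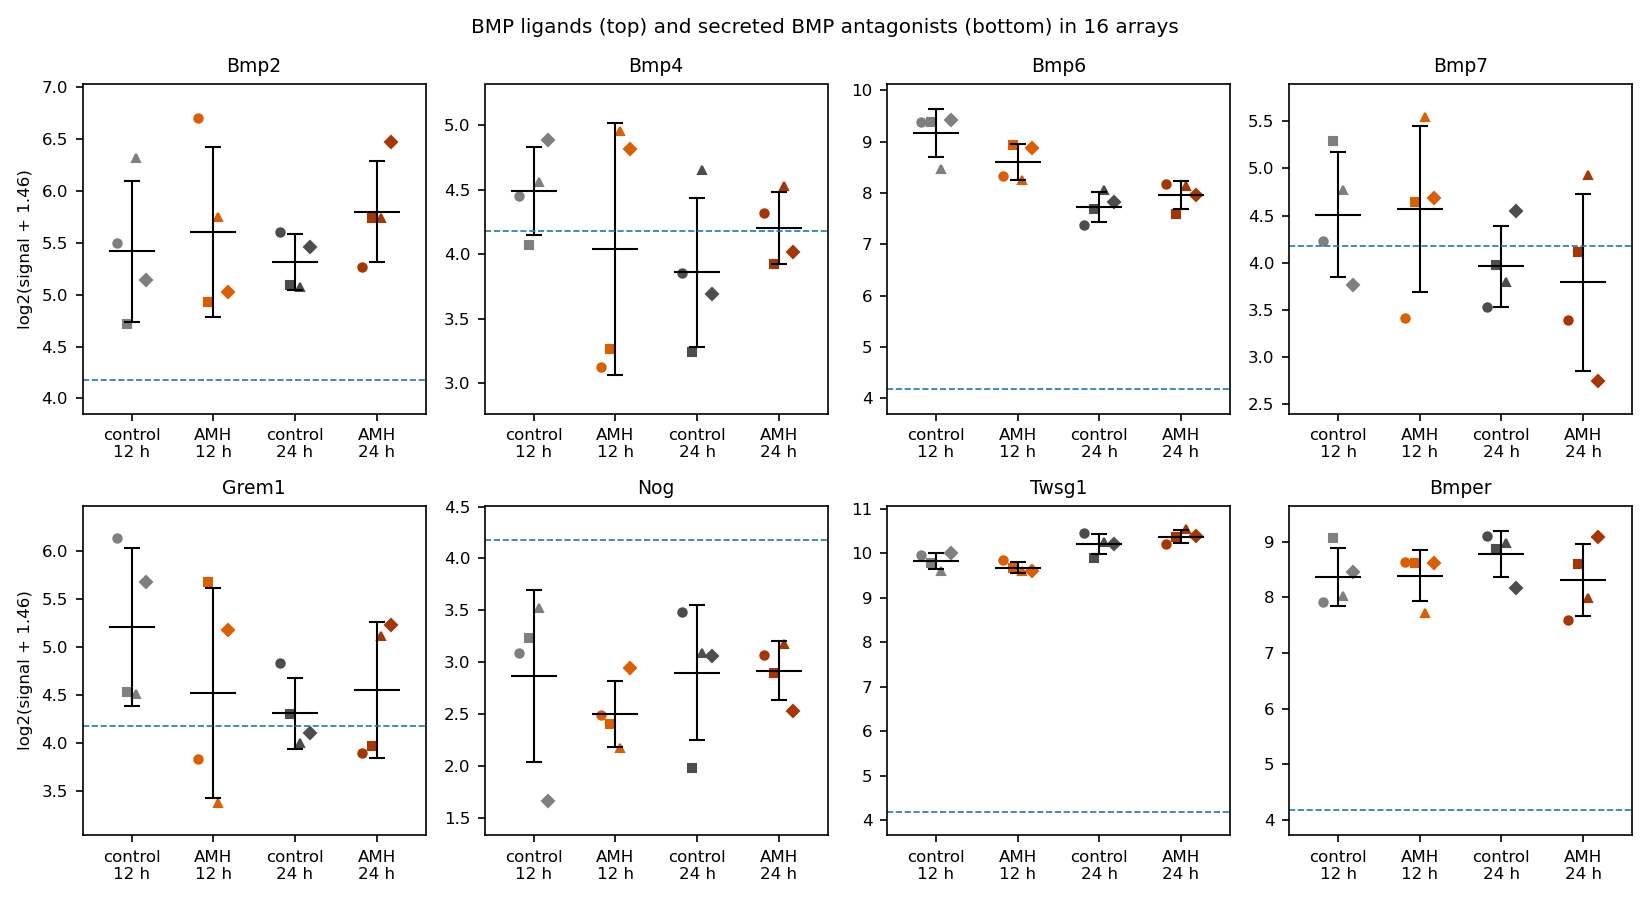
Levels of the 8 genes as log2(signal + 1.46) in each of the 16 arrays, by arm and time; circle, square, triangle and diamond are replicates 1 to 4, bars are the mean ± SD, and the vertical axes differ between panels. The dashed line marks the filter level of 4.18, which all 16 arrays of Nog lie under, and for Bmp6 the 4 control arrays at 12 h lie above the 4 at 24 h.

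Bmp2, a ligand studied in granulosa cells as well as in bone, gave moderate signals. Control arrays at 12 h stood at 5.50, 4.72, 6.32 and 5.14 (5.42 ± 0.68) and AMH arrays at 6.70, 4.93, 5.75 and 5.03 (5.60 ± 0.82). At 24 h control arrays stood at 5.60, 5.09, 5.07 and 5.46 (5.31 ± 0.27) and AMH arrays at 5.27, 5.74, 5.74 and 6.47 (5.80 ± 0.49). All 4 groups overlapped. With AMH at 24 h Bmp2 was higher in 3 of 4 pairs, with a change of 0.50 (SE 0.30, 95% interval -0.17 to 1.17, adjusted p = 1). At 12 h the change was 0.19 (95% interval -0.48 to 0.85). Over time Bmp2 changed by -0.11 in controls (95% interval -0.94 to 0.71) and by 0.20 with AMH (-0.63 to 1.03), neither called.

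Bmp7, a ligand that in the ovary is associated with theca cells, lay at the filter. Its main probe set had a mean of 4.21 against a filter level of 4.18, and 8 of 16 arrays were under that level. Control arrays at 12 h stood at 4.23, 5.29, 4.77 and 3.76 (4.51 ± 0.66) and at 24 h at 3.53, 3.98, 3.79 and 4.55 (3.96 ± 0.43). AMH arrays stood at 3.41, 4.64, 5.55 and 4.69 at 12 h (4.57 ± 0.88) and at 3.39, 4.11, 4.93 and 2.74 at 24 h (3.79 ± 0.94). Groups overlapped throughout. Changes over time were -0.55 in controls (95% interval -1.60 to 0.50) and -0.78 with AMH (-1.83 to 0.27), and the changes with AMH were 0.06 at 12 h and -0.17 at 24 h, none called. The other 2 probe sets of Bmp7 averaged 3.94 and 3.89, under the filter, and correlated with the main one at 0.86 and 0.55 over 16 arrays.

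Bmp4, a ligand closely related to BMP2, averaged 4.15, just under the filter, with 8 of 16 arrays under it. Control arrays stood at 4.45, 4.07, 4.56 and 4.89 at 12 h (4.49 ± 0.34) and at 3.85, 3.24, 4.65 and 3.69 at 24 h (3.86 ± 0.58). AMH arrays stood at 3.12, 3.26, 4.96 and 4.82 at 12 h (4.04 ± 0.98), a group split into 2 low and 2 high arrays, and at 4.32, 3.92, 4.53 and 4.02 at 24 h (4.20 ± 0.28). In a fit of all 18193 genes without the filter, the change was -0.63 over time in controls (95% interval -1.52 to 0.26) and 0.16 with AMH. The change with AMH was -0.45 at 12 h (95% interval -1.20 to 0.30) and 0.34 at 24 h (-0.41 to 1.08), and none was called.

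Among the binding proteins, Twsg1 gave strong signals in every array and rose over time, by its main probe set, with the smaller p in the AMH arm. Twisted gastrulation binds BMPs together with chordin and can either hold them back or release them. AMH-treated arrays stood at 9.86, 9.67, 9.61 and 9.60 at 12 h (9.68 ± 0.12) and at 10.21, 10.36, 10.55 and 10.40 at 24 h (10.38 ± 0.14). All 24 h arrays were above all 12 h arrays. The change was 0.70 (SE 0.12, 95% interval 0.44 to 0.96, adjusted p = 0.00264), in a comparison where 4.34% of all genes were called as higher and 7.47% had groups that did not overlap in that direction.

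In control follicles Twsg1 stood at 9.97, 9.79, 9.61 and 10.00 at 12 h (9.84 ± 0.18) and at 10.46, 9.90, 10.25 and 10.22 at 24 h (10.21 ± 0.23). These groups overlapped because array 2 at 24 h was under arrays 1 and 4 at 12 h. The change was 0.36 (SE 0.12, 95% interval 0.11 to 0.62), a 1.29-fold rise that was called narrowly (adjusted p = 0.0463), where 9.96% of all genes were called as higher. The call was lost when any 1 replicate number was left out (adjusted p from 0.0565 to 0.248), and also without array 1, 3 or 4 of control 24 h or array 2 or 3 of control 12 h alone. When each array was centred on its median, the change was 0.18 (adjusted p = 0.346).

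With AMH, Twsg1 differed from paired controls at 12 h by -0.12, -0.13, 0.00 and -0.40, with a change of -0.16 (SE 0.12, 95% interval -0.42 to 0.10). At 24 h the pairs differed by -0.25, 0.46, 0.29 and 0.18, with a change of 0.17 (95% interval -0.09 to 0.43), in a comparison where 0.0164% of all genes were called. The difference between these 2 effects was 0.33 (SE 0.17, 95% interval -0.04 to 0.70, adjusted p = 0.893). The larger rise over time in the AMH arm was therefore not shown to differ from that in controls.

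Twsg1 was measured by 4 probe sets, all over the filter, and they did not move alike. In a fit of all 27022 probe sets, the main one and 2 others had positive changes in controls, of 0.36 (adjusted p = 0.0558), 0.53 (adjusted p = 0.028) and 0.34 (adjusted p = 0.207). In the AMH arm these 3 rose by 0.70, 0.72 and 0.71, with adjusted p = 0.00325, 0.0106 and 0.0251. The fourth, 1426073_at, went the other way in controls, from 6.97, 6.41, 6.17 and 6.83 at 12 h (6.59 ± 0.37) to 6.09, 5.41, 5.15 and 4.67 at 24 h (5.33 ± 0.59). The groups did not overlap, as for 10.9% of all genes with 24 h lower, and its change was -1.26 (SE 0.28, adjusted p = 0.00686). In the AMH arm its change was -0.33 (adjusted p = 0.564). Over 16 arrays the main probe set correlated at 0.75 and 0.72 with the 2 that rose with it and at -0.30 with the fourth. The direction of Twsg1 in controls thus depended on the probe set, and the mean of its probe sets changed by -0.01 (adjusted p = 0.982). Which transcripts each probe set matches was not analysed here.

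**Figure D2:**
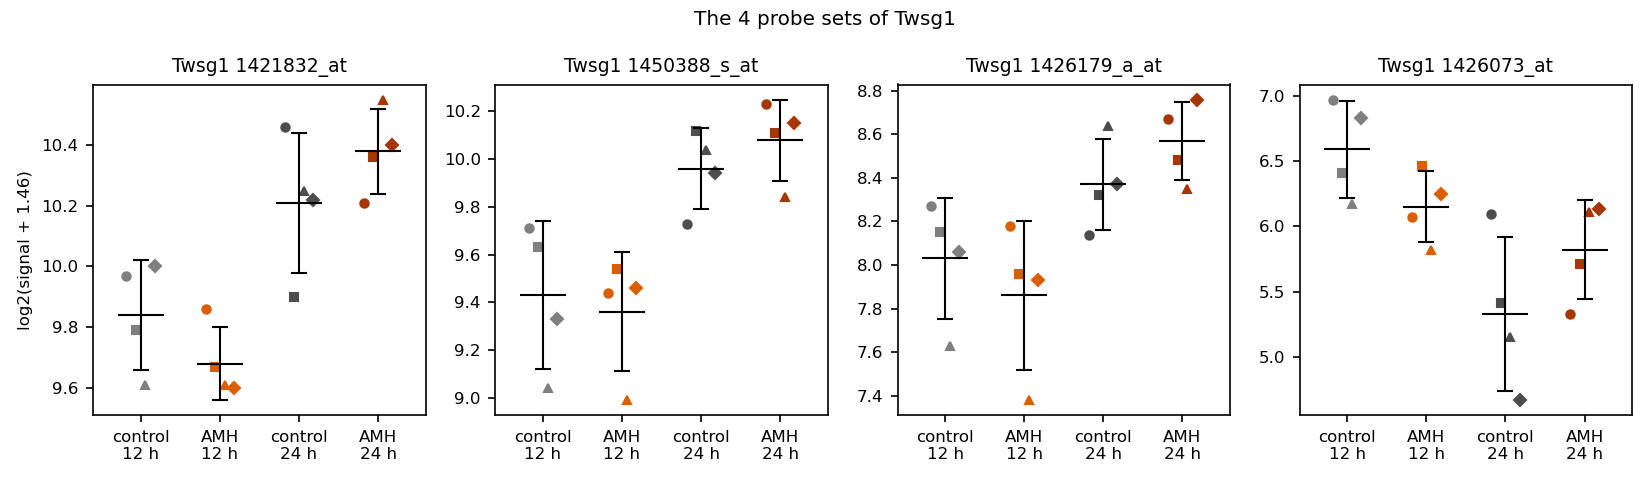
The 4 probe sets annotated to Twsg1 as log2(signal + 1.46) in each array, by arm and time; circle, square, triangle and diamond are replicates 1 to 4 and bars are the mean ± SD. Probe sets 1421832_at, 1426179_a_at and 1450388_s_at have higher means at 24 h in both arms, while in controls 1426073_at goes from 6.59 to 5.33.

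Bmper, an extracellular protein that binds BMPs through its von Willebrand factor type C domains, also gave clear signals but no called change. Control arrays stood at 7.92, 9.06, 8.03 and 8.46 at 12 h (8.37 ± 0.52) and at 9.10, 8.86, 8.97 and 8.17 at 24 h (8.78 ± 0.41). AMH arrays stood at 8.63, 8.61, 7.71 and 8.62 at 12 h (8.39 ± 0.46) and at 7.60, 8.59, 7.98 and 9.08 at 24 h (8.31 ± 0.65). Groups overlapped at both times. With AMH the change was 0.03 at 12 h (95% interval -0.69 to 0.74) and -0.47 at 24 h (-1.18 to 0.24), where the pairs ran from -1.50 to 0.90 and 3 of 4 were lower with AMH. Over time it was 0.41 in controls (95% interval -0.27 to 1.09) and -0.08 with AMH (-0.76 to 0.60).

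Grem1, a BMP antagonist of the DAN family that granulosa cells around the oocyte are known to make, was weak and variable, with 6 of 16 arrays under the filter level. Control arrays stood at 6.13, 4.53, 4.51 and 5.68 at 12 h (5.21 ± 0.82) and at 4.83, 4.30, 4.00 and 4.10 at 24 h (4.31 ± 0.37). AMH arrays stood at 3.83, 5.68, 3.38 and 5.18 at 12 h (4.52 ± 1.09) and at 3.90, 3.97, 5.11 and 5.23 at 24 h (4.55 ± 0.71). In each comparison groups overlapped. The change over time was -0.90 in controls (SE 0.51, 95% interval -1.98 to 0.17, adjusted p = 0.23) and 0.03 with AMH. The change with AMH at 12 h was -0.70 (SE 0.52, 95% interval -1.83 to 0.44), where the pairs ran from -2.30 to 1.16, and at 24 h it was 0.24 (-0.89 to 1.38).

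Nog, which encodes the antagonist noggin, averaged 2.80 and was under the filter level in all 16 arrays. Control arrays stood at 3.09, 3.23, 3.52 and 1.66 at 12 h (2.87 ± 0.83) and at 3.48, 1.98, 3.09 and 3.06 at 24 h (2.90 ± 0.65). AMH arrays stood at 2.49, 2.40, 2.17 and 2.94 at 12 h (2.50 ± 0.32) and at 3.07, 2.90, 3.18 and 2.53 at 24 h (2.92 ± 0.28). All groups overlapped, and in the fit without a filter the changes with AMH were -0.37 at 12 h (95% interval -1.34 to 0.60) and 0.02 at 24 h (-0.95 to 0.99). At such signals a difference would be hard to detect.

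**Figure D3:**
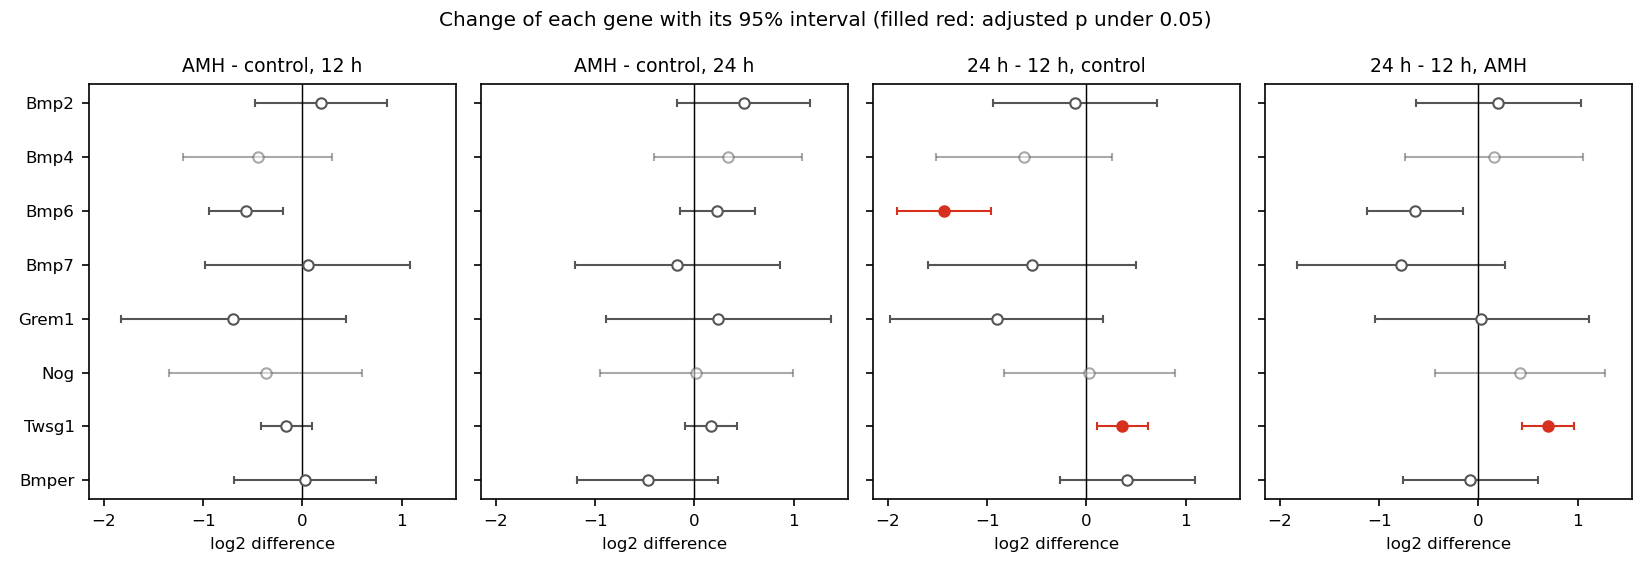
Changes of the 8 genes on the log2(signal + 1.46) scale in the comparisons of AMH with control and of 24 h with 12 h; dots are the fitted change, lines the 95% interval, red marks an adjusted p under 0.05, and faded points (Bmp4 and Nog) come from the fit without a filter. Red points are Bmp6 in controls at -1.44 and Twsg1 over time at 0.36 in controls and 0.70 with AMH.

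Averaged over both times, the change with AMH ran from -0.23 for Grem1 to 0.34 for Bmp2 among the 6 tested genes, with 0% of all genes called and 4.81% at an unadjusted p under 0.05. The comparisons at 12 h, at 24 h and their mean share arrays, so these values are not independent of those at each time. In total, 0 of 6 genes were called in each of the 4 AMH comparisons, and of the 6 only Bmp6 had an unadjusted p under 0.05, at 12 h and for the difference between times.

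The signals come from whole follicles, so the arrays were set against lists of cell type markers. Of the markers, 15 of 18 for oocytes, 10 of 11 for granulosa cells, 6 of 9 for theca, 11 of 12 for stroma and smooth muscle, 9 of 10 for endothelium, 8 of 10 for immune cells and 8 of 8 for surface epithelium were over the filter. Cyp19a1, Insl3 and Lhcgr, which mark granulosa and theca cells, matched no probe set annotated to that symbol alone, and the pan-leukocyte gene Ptprc did not pass. Mean log2 levels of the oocyte list ran from 6.97 to 9.30 over the arrays, a 5.04-fold range, with replicate 3 of control 12 h highest. The granulosa list averaged 8.68 ± 0.49 in control and 8.87 ± 0.48 in AMH arrays at 12 h, and 9.59 ± 0.28 and 9.63 ± 0.43 at 24 h. The stroma list averaged 7.70 ± 0.61 and 7.97 ± 0.24 at 12 h, and 8.59 ± 0.22 and 9.10 ± 0.20 at 24 h.

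Bmp6 ran against the immune list from array to array. The immune list averaged 6.58 ± 0.75 in control and 6.75 ± 0.68 in AMH arrays at 12 h, and 5.98 ± 0.36 and 6.67 ± 0.56 at 24 h, with summed signals of 726 to 1796, 510 to 1431, 411 to 789 and 544 to 1521. After group means were removed, Bmp6 and the immune mean correlated over the 16 arrays at r = -0.82 (permutation within groups, p = 0.0003, adjusted over 42 relations 0.0126) and at Spearman's rho = -0.77 (permutation p = 0.00045, adjusted 0.0189). Without the 2 arrays farthest from the median of the immune mean, r was -0.72. This was the only one of 42 relations, 6 genes against 7 lists, to pass the adjustment. That permutation moves arrays singly, although AMH and control arrays of one number share a pool. When whole pairs were moved within each time, an alternative added after seeing the data, the exact permutation p was 0.00174 for r and for rho, the smallest that 576 arrangements allow, and the adjusted value of 0.0729 did not pass. No relation could pass in that test on its own. Over the 8 pairs, the AMH minus control differences of Bmp6 and of the immune mean correlated at -0.95, and the pair means at -0.77, given as descriptions. The low Bmp6 array of control 12 h, replicate 3, was the highest or lowest of its group in most lists, not in the immune list alone. Its immune (7.62), oocyte (9.30), stroma (8.41), endothelial (7.77) and theca (8.87) means were the highest of its group. Its granulosa mean (7.98) was the lowest, and its surface epithelium mean (8.90) was neither.

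With the granulosa mean Bmp6 correlated at r = 0.65 (permutation p = 0.0273, adjusted 0.27) and rho = 0.53 (permutation p = 0.0648, adjusted 0.454), and r was 0.41 without the 2 farthest arrays. With the oocyte mean r was -0.25 and rho -0.08 (permutation p = 0.448 and 0.77, adjusted 0.818 and 0.935), and r was -0.05 without the 2 farthest. The fall of Bmp6 in controls was -1.72 (adjusted p = 4.22e-05) with the immune mean as a covariate, -1.92 (adjusted p = 0.00103) with the granulosa mean and -1.09 (adjusted p = 0.0189) with the stroma mean. In the AMH arm Bmp6 was called with the immune mean (-0.67, adjusted p = 0.00978) and with the granulosa mean (-1.04, adjusted p = 0.0155) as a covariate. It was not called with the stroma mean (-0.19, SE 0.35 against 0.23 in the main fit, adjusted p = 0.78). The stroma mean went from 7.97 ± 0.24 to 9.10 ± 0.20 over time in that arm, so this covariate is hard to separate from time. Within groups, Bmp6 and the stroma mean correlated at r = -0.41 (permutation p = 0.301, adjusted 0.664) and rho = -0.19 (permutation p = 0.541, adjusted 0.935). Without the 2 farthest arrays r was 0.05. The immune and granulosa covariates were chosen after seeing the data. What part cell make-up has in the Bmp6 levels was not tested further.

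**Figure D4:**
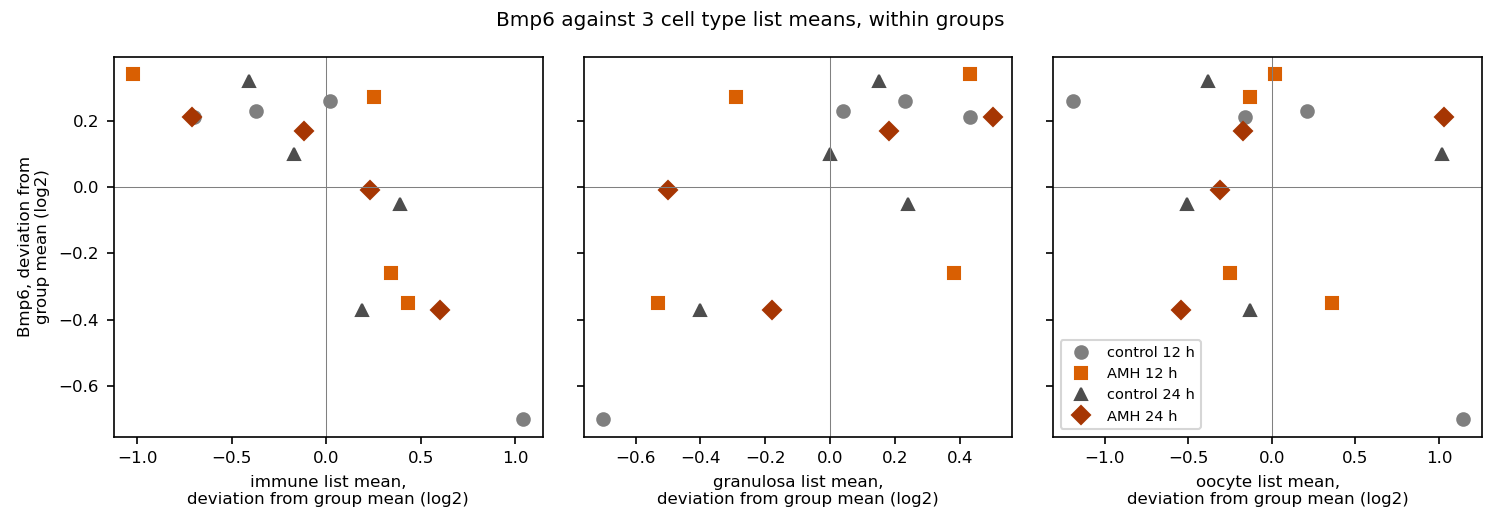
Deviation of Bmp6 from its group mean (vertical, log2) against the deviation of the mean log2 level of a marker list from its group mean (horizontal) in the 16 arrays, with markers by group. Against the immune list the points fall from upper left to lower right (r = -0.82), against the granulosa list r was 0.65 and against the oocyte list -0.25.

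Among the members themselves, deviations of Bmp6 from its group means ran against those of Bmp2 (r = -0.72 over 16 arrays) and with those of Grem1 (0.50), given as descriptions. Bmp2 in turn ran with the immune list (r = 0.67, permutation p = 0.0269, adjusted 0.27; rho = 0.59, permutation p = 0.0395, adjusted 0.432), and r was 0.49 without the 2 farthest arrays. Bmper ran against the oocyte list (r = -0.66, permutation p = 0.0167, adjusted 0.27; rho = -0.54, permutation p = 0.0514, adjusted 0.432), and r was -0.56 without them. Bmp7 ran with the endothelial list (r = 0.62, permutation p = 0.0321, adjusted 0.27), and r was 0.56 without the 2 farthest arrays. Its rho was 0.71 (permutation p = 0.0121, adjusted 0.255). None of these relations with a list passed the adjustment.

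Of 12166 other genes, those whose levels followed Bmp6 most closely over the 16 arrays were Ptx3 (r = 0.93), a pentraxin of the cumulus matrix, Rfxap (0.92) and Itga2 (0.92), an integrin subunit. Within groups their correlations were 0.76, 0.81 and 0.77. For Twsg1 they were Cmtm2a (0.89), Calcoco1 (0.88) and Fam172a (0.88), with 0.56, 0.76 and 0.85 within groups. For Bmp2 they were Sytl2 (0.83), Swap70 (0.80) and Prss23 (0.80), and for Bmper Kidins220 (0.84), Vps45 (0.82) and Pcyt1a (0.81). For Grem1 they were Kbtbd11 (0.86), Cox4i2 (0.85) and Tmem45a (0.81), and for Bmp7 Alpl (0.82), Gfra2 (0.82) and Enpep (0.80). These are the highest of many correlations over arrays that share pools and cell make-up, and are descriptions only.

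The rest of the pathway was followed in 5 lists. Of 12 other BMP-family ligands 5 were tested, and 0 were called in any comparison, with a median change over time of -0.23 in controls and -0.06 with AMH, against -0.01 and -0.02 over all genes. Gdf9, an oocyte growth factor that is also on the oocyte list, had a change of -0.38 in controls (adjusted p = 0.65). Gdf10 had 0.80 in the AMH arm (adjusted p = 0.204) and -0.69 with AMH at 12 h (adjusted p = 0.781). Of 19 other secreted modulators 8 were tested and 0 called. Crim1, a membrane protein that holds BMPs at the cell surface, had the smallest p in controls with a change of -0.60 (SE 0.21, adjusted p = 0.0559). Its change was -0.33 without replicate 2, -0.39 without array 2 of control 12 h and -0.17 with the stroma mean as a covariate, and it was called without replicate 3 (-0.82, adjusted p = 0.0195), without array 3 of control 12 h, with median centring, with array weights and with the oocyte or immune mean as a covariate. Nbl1, a DAN-family antagonist, had the smallest p in the AMH arm with 0.65 (SE 0.23, adjusted p = 0.0864), and 0.01 with the stroma mean as a covariate. With AMH at 24 h Nbl1 had a change of 0.47 (adjusted p = 1).

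Some receptors rose over time. Of 13 receptors and co-receptors 11 were tested, and 3 were called higher and 0 lower in controls, where 9.96% of all genes were called higher. In the AMH arm 2 were called higher and 0 lower, where 4.34% of all genes were called higher. The list's medians were 0.11 and 0.20, against -0.01 and -0.02 over all genes. Bmpr1b, a BMP type I receptor, stood at 7.98, 8.09, 7.07 and 7.95 in controls at 12 h (7.77 ± 0.47). At 24 h it stood at 8.72, 8.71, 9.21 and 9.23 (8.97 ± 0.29). It had no overlap between times, as had 11.4% of all genes with 24 h higher. Its change was 1.20 (SE 0.24, 2.29-fold, adjusted p = 0.0029) in controls and 1.29 (SE 0.24, adjusted p = 0.00369) with AMH. Bmpr2, the BMP type II receptor, rose by 0.70 (SE 0.15, adjusted p = 0.0043) in controls and by 0.66 (SE 0.15, adjusted p = 0.0114) with AMH.

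Amhr2, the AMH receptor, which is also on the granulosa list, stood at 9.70, 9.80, 9.44 and 9.17 in controls at 12 h (9.53 ± 0.28) and at 10.40, 10.89, 10.38 and 10.46 at 24 h (10.53 ± 0.24). Its change was 1.01 (SE 0.23, adjusted p = 0.00698). The granulosa list also had higher means at 24 h, and with its mean as a covariate the changes in controls were 0.66 for Bmpr1b (adjusted p = 0.12), 0.47 for Bmpr2 (adjusted p = 0.125) and 0.49 for Amhr2 (adjusted p = 0.238), none called. This loss was not particular to the receptors. With that covariate the calls over all 12172 genes went from 2330 to 852 in controls and from 1008 to 591 in the AMH arm. In the AMH arm the Bmpr2 call was lost with that covariate (0.47, adjusted p = 0.116), with median centring (adjusted p = 0.0539) and with replicate 2, 3 or 4 left out (adjusted p = 0.0699, 0.068 and 0.112). The Bmpr1b call there was lost without replicate 4 (adjusted p = 0.0563). With median centring the Bmpr2 call in controls was lost too (0.52, adjusted p = 0.0532).

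With AMH no receptor was called. The smallest p at 12 h belonged to Amhr2, with a change of 0.43 (adjusted p = 0.686), and at 24 h to Acvr1, a type I receptor, with 0.24 (adjusted p = 1). Of 4 SMADs 3 were tested and 0 called in any comparison. Smad5 had a change of -0.17 with AMH at 12 h (adjusted p = 0.861), and Smad4 had 0.12 with AMH at 24 h (adjusted p = 1), -0.05 over time in controls (adjusted p = 0.792) and 0.09 in the AMH arm (adjusted p = 0.676).

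Of 13 SMAD targets and inhibitors inside the cell or its membrane 11 were tested. Over time 1 rose and 1 fell in controls, and 1 rose in the AMH arm, shares near the 19.1% and 8.28% called among all genes. Id2, a dominant-negative helix-loop-helix factor, stood at 7.44, 7.11, 8.14 and 8.22 in controls at 12 h. At 24 h it stood at 9.18, 8.66, 8.41 and 8.36. It had no overlap between times, as had 11.4% of all genes with 24 h higher. It rose by 0.92 (SE 0.24, adjusted p = 0.0139) in controls and by 1.04 (SE 0.24, adjusted p = 0.0143) with AMH. Both calls were lost with the stroma mean as a covariate (0.68 and 0.72, adjusted p = 0.164 and 0.272). The call in controls was lost without replicate 1 or 2 (adjusted p = 0.105 and 0.111). That in the AMH arm was lost without replicate 2, 3 or 4 (adjusted p = 0.0515, 0.108 and 0.0712) and without array 3 of AMH 12 h alone (adjusted p = 0.0543).

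Id4, of the same family, stood at 5.89, 5.82, 6.31 and 5.98 at 12 h and at 4.86, 4.41, 5.36 and 5.64 at 24 h in controls. The groups did not overlap, as for 10.9% of all genes with 24 h lower. The change of Id4 was -0.93 (SE 0.29, adjusted p = 0.036), a call lost in 13 of 28 alternatives. Among them were leaving out replicate 1, 2 or 3 or any array of control 12 h. With AMH 0 of the 11 were called at either time. At 24 h their changes had a median of 0.48 against 0.01 over all genes, with 10 above 0, and Id4 had the smallest p with a change of 0.97 (SE 0.33, adjusted p = 0.943). In the other lists at 24 h, 11 of 11 receptors (median 0.13) and 7 of 8 other modulators (0.22) were above 0. So were 3 of 5 other ligands (0.11) and 2 of 3 SMADs (0.12), close to an even split. With a median of 0.01, all genes together were also split nearly evenly around 0. None of these list genes was called, and a shared direction of the lists was not tested. At 12 h the median of the targets and inhibitors was 0.12. Smurf2, a ubiquitin ligase for SMADs and receptors, had the smallest p there with -0.26 (adjusted p = 0.716). For the mean of both times Smad6, an inhibitory SMAD, had 0.53 (SE 0.17, adjusted p = 0.946).

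**Figure D5:**
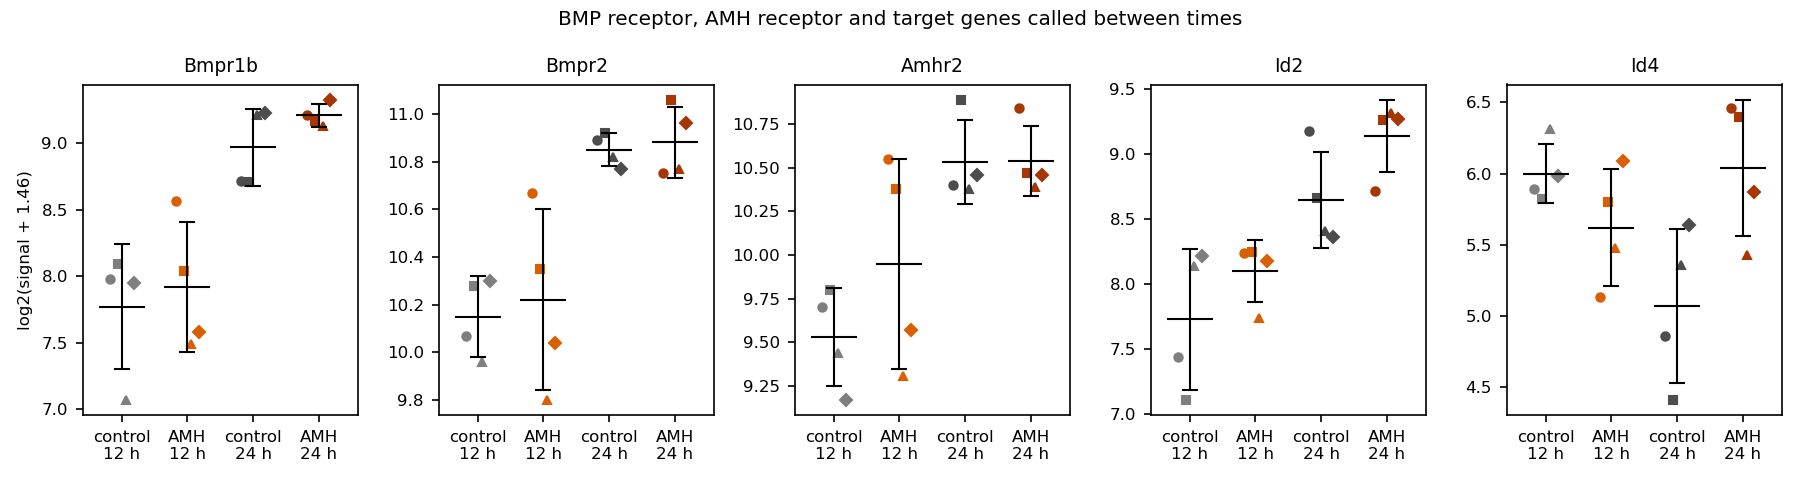
Levels of the receptor genes Bmpr1b, Bmpr2 and Amhr2 and the targets Id2 and Id4 as log2(signal + 1.46) in each array, by arm and time; circle, square, triangle and diamond are replicates 1 to 4 and bars are the mean ± SD. In controls the 24 h arrays of Bmpr1b (8.71 to 9.23) lie above the 12 h arrays (7.07 to 8.09), and those of Id4 lie below.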

How the data were processed

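RNA of cultured mouse follicles was measured on Affymetrix arrays, 16 in all, 4 per arm and time; per the labels, 5 ng of total RNA per sample went into amplification and biotin labelling. Deposited values are linear intensities from MAS5, which the submitters' processing notes name as the authors' tool; the MAS5 version and detection calls were not given in the sources used here. Each array had a trimmed mean of 150 (2% left out at each end), and medians from 27.8 to 40.2, so no further scaling was applied. The number of arrays limits the precision.

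Signals were turned into log2(signal + 1.46). Of 45101 probe sets, 64 controls were left out; 34945 of the others had 1 gene symbol in GEO's platform annotation, 932 had several and 9160 none. A gene was represented by its brightest probe set on average, and genes under the 40th percentile (log2 4.18, a signal of 16.6) were not tested, which left 12172. Linear models came from limma 3.58.1 (R 4.3.3, eBayes with a trend), and p-values were adjusted by Benjamini-Hochberg over all genes tested, with a threshold of 0.05. The labels name a pool of mice per experiment, not whether both times shared it. The p-values of the time comparisons set the change against the spread between samples of a group. Those of the AMH comparisons set it against the spread of the differences within pairs.

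The AMH comparisons had the 8 pairs of arrays as a block, since the design text calls both arms of an experiment comparable in pairs. Deviations of paired arrays correlated at 0.299, 0.349, 0.56 and 0.214 (12 h) and at -0.437, 0.327, 0.2 and -0.287 (24 h). Arrays of pairs 1 and 4 at 24 h were thus not alike, which limits what pairing adds there. In an alternative with 24 h pairs 1 and 4 left out, no member was called with AMH. The comparisons of times used 4 group means. Correlations with marker lists were tested by 100000 two-sided permutations within groups, and again with whole pairs permuted. The fits were run on simulated data with 200 changed genes, for AMH at 24 h and for time in controls. Of changes of 1 log2 unit, 73% and 69% were called, and 6.59% and 6.74% of calls were false. The simulated noise was independent between arrays, so shared cell make-up was not part of it.

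The members and lists were chosen with earlier results of these data known. All members are named; of each pathway list, up to 4 called genes with the smallest p per comparison, or else the gene with the smallest p; and for likeness the 3 highest correlations. Of these, some pathway genes with the smallest p are left out of the text. Figures were drawn with matplotlib 3.10.9 and correlations computed with scipy 1.17.1 in Python 3.11.15. Alternatives covered the offset, filter, scaling, probe set choice, weights, covariates, block and left-out arrays.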

Additional observations from a re-analysis of the deposited data

Results flagged for a closer look

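Each of the 8 genes was checked in each of the 4 groups, 32 groups of 4 arrays in all, for an array far from the others of its group. Bmp6 in replicate 3 of control 12 h stood at 8.47, while the other 3 arrays lay between 9.38 and 9.43. Without that array the change of Bmp6 in controls was -1.67 in limma (adjusted p = 0.000125). Bmper in replicate 3 of AMH 12 h stood at 7.71, while the others lay between 8.61 and 8.63, and without that array its change over time in the AMH arm was -0.31 (adjusted p = 0.647). Chance alone picks out about 1 in 20 groups, so 2 among 32 is near that share.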

How the results depend on the processing

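Each comparison was recomputed under other offsets, filters, scalings, probe set rules, weights, covariates and blocks, and without each array or replicate number. In limma, Bmp6 in controls was called in all 29 alternatives (-1.92 to -1.09, adjusted p from 4.05e-05 to 0.0189), and Twsg1 in the AMH arm in all 29 (0.45 to 0.85, adjusted p from 0.000249 to 0.0456). Twsg1 in controls was called in 10 of 29 and lost its direction, at -0.01, when probe sets were averaged (adjusted p = 0.982); probe set 1426073_at, which goes the opposite way, enters that mean. The count of members called over time in controls, by the main probe set of each, was therefore 1 instead of 2, Bmp6 alone, without a filter, with median centring, with probe sets averaged, with each probe set tested (where the main one of Twsg1 missed the threshold and 1450388_s_at and 1426073_at passed it in opposite directions), with the oocyte, stroma, immune or granulosa mean as a covariate, with only the arrays of the 2 groups, and with the replicate number as a block, and it ran from 1 to 2 with a replicate or array left out. In the AMH arm it was 2 instead of 1, Bmp6 added, with array weights and with the immune or granulosa mean as a covariate. It ran from 1 to 2 with a replicate or array left out, and the cause was not tested. The calls over all 12172 genes moved as well. In controls they numbered 2330 in the main fit, 852 with the granulosa mean, 1913 with the immune mean and 2642 with the stroma mean. In the AMH arm they numbered 1008 in the main fit and 1857 with array weights. With the immune mean they numbered 1250 there, and with the granulosa mean 591. Bmp6 in that arm had -0.79 (adjusted p = 0.0147) with array weights. The immune and granulosa covariates were chosen after seeing the data.

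Of 24 member changes with AMH, 15 changed sign in at least 1 alternative and 0 were called in any. Same-numbered arrays of 12 h and 24 h deviated together at -0.409 to 0.134 in controls and 0.0375 to 0.247 with AMH, which does not settle whether numbers pair the times; with that replicate block Twsg1 in controls had adjusted p = 0.0589 and no other member call changed, and leaving the pair block out of the AMH comparisons changed no member call. With median centring the median of all genes in controls was -0.19, against -0.01 without it, Bmp6 had -1.42 and Twsg1 0.38 relative to that median, and 24.6% of calls were higher instead of 52%. With whole pairs permuted, 0 instead of 1 of the relations with marker lists passed the adjustment, which that test's smallest p does not allow for a single relation. Signals near the filter limit what Bmp4, Bmp7, Grem1 and Nog can show.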
